A study of Mus musculus with 6 samples.

Results

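The genes of epidermal growth factor (EGF) signalling were followed in crypt epithelium of the mouse jejunum, a segment of the small intestine. The 10 genes are the receptor genes Egfr, Erbb2 and Erbb3, the ligand genes Egf, Areg, Ereg, Btc, Hbegf and Tgfa, and Lrig1, an inhibitor of the receptors. They were found through their symbols: every probe set that the platform annotation gives to a single gene of that name was taken, which gave 22 of 45037 probe sets for 9 of the 10 genes, of 18193 genes so named on the array. Areg had 0 such probe sets in the annotation used here and is not analysed. Sox9-deficient mice (KO 1 to KO 3) were compared with wild-type littermates (WT 1 to WT 3), all C57BL/6 and 3 months old, with 1 single-colour array for each mouse. Where values are given for a group, they follow the order of its mice, 1 to 3. The labels give neither the Sox9 allele nor what deletes it, so the cells in which Sox9 was lost are not known from them. All values are log2 intensities as deposited, made with GCRMA, and a difference is the KO mean minus the WT mean on that scale.

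EGF-type ligands are made as membrane-anchored precursors, are cut free by proteases of the ADAM family, and bind receptors that pair up and switch on the RAS-ERK and PI3K-AKT pathways. In the intestinal crypt this signal is known to drive the division of stem and progenitor cells, and Paneth cells at the crypt base are known as a source of EGF and TGF-alpha. Erbb3 has little kinase activity of its own and signals in pairs with other receptors, above all Erbb2, which has no known ligand. Lrig1 restrains the receptors by promoting their breakdown and marks cells of the crypt base.

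The arrays had the signal of intestinal epithelium, with 7 of 7 epithelial markers measured, 5 of 7 Paneth markers and 1 of 10 stromal markers (Vim; collagen and decorin genes stayed under the filter). A Sox9 probe set (1451538_at) read 2.42 to 2.75 in KO and 5.84 to 7.61 in WT, while 2 others (1424950_at, 5.33 to 6.34 in KO and 2.68 to 6.23 in WT; 1433889_at, at most 3.53) did not part the groups. WT 1 and WT 2 carried Y-linked signal (Eif2s3y 10.1 on each) while WT 3 (2.86) and the 3 KO arrays (2.84 to 2.95) did not, so sex, which the labels do not give, differed between the groups. Of the leukocyte markers 6 of 10 were measured, and their median from the mean of each gene was 0.18 to 0.42 on the KO arrays and -1.50, 0.39 and -0.03 in the WT mice. Differences were above 0 for 5 of the 6 and below for 1, Lyz2. At an unadjusted p under 0.05 in limma, Lyz2 was lower in KO and 0 were higher, with 0 at the adjusted one. Lyz2 was bright (mean 13.0 in KO and 14.1 in WT), while Itgam and Cd68 of the same list stayed under the filter. The Paneth marker Lyz1 was lower in KO as well (-0.75), and which cells gave the Lyz2 signal was not tested. The Paneth markers stood at -0.52, -0.36 and 0.01 in KO mice and at 0.55, 0.30 and 0.37 in WT mice. Differences were below 0 for 4 of the 5 measured and above for 1, Ang4 (0.06 ± 0.31, SE). The largest was that of Mmp7, a Paneth cell protease gene, at 7.98 ± 1.01 in KO against 12.7 ± 0.52 in WT mice (mean ± SD, n = 3). Enterocyte markers of the villus, 6 of 7 measured, were bright as well (Fabp1 16.2 ± 0.22 in KO, SD, n = 3), and their median was 0.28, 0.18 and 0.16 in KO mice and -0.45, 0.05 and -0.09 in WT mice, with 2 of 6 (Alpi and Apoa4) higher in KO at an unadjusted p under 0.05 in limma and 0 at the adjusted one. In bulk RNA, fewer cells of a type and less RNA per cell cannot be told apart, and the part that sex, leukocytes, Paneth cells or enterocytes had in the values that follow was not tested except where a value is given.

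Of the 22 probe sets, 11 of 7 genes averaged 4 or more over the 6 arrays, the filter used here, and were tested. Egf and Ereg had no tested probe set. No EGF family gene passed the test. Of the 11 probe sets, 0 reached an adjusted p of 0.05 in limma (each stood at 0.999), against 0.011% of the 18108 probe sets tested. At an unadjusted p under 0.05 the count was 0 of 11, against 3.62% of all. The groups did not overlap on 1 of the 11, a probe set of Tgfa, against 9.12% of all. Differences ran from -0.41 (Btc) to 0.47 (Egfr), 6 above and 5 below 0, with a median size of 0.33 against 0.19 over all probe sets tested. With 3 arrays a group the 95% intervals were wide, and 7 of the 11 reached 1 log2 unit in at least 1 direction.

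**Figure D1:**
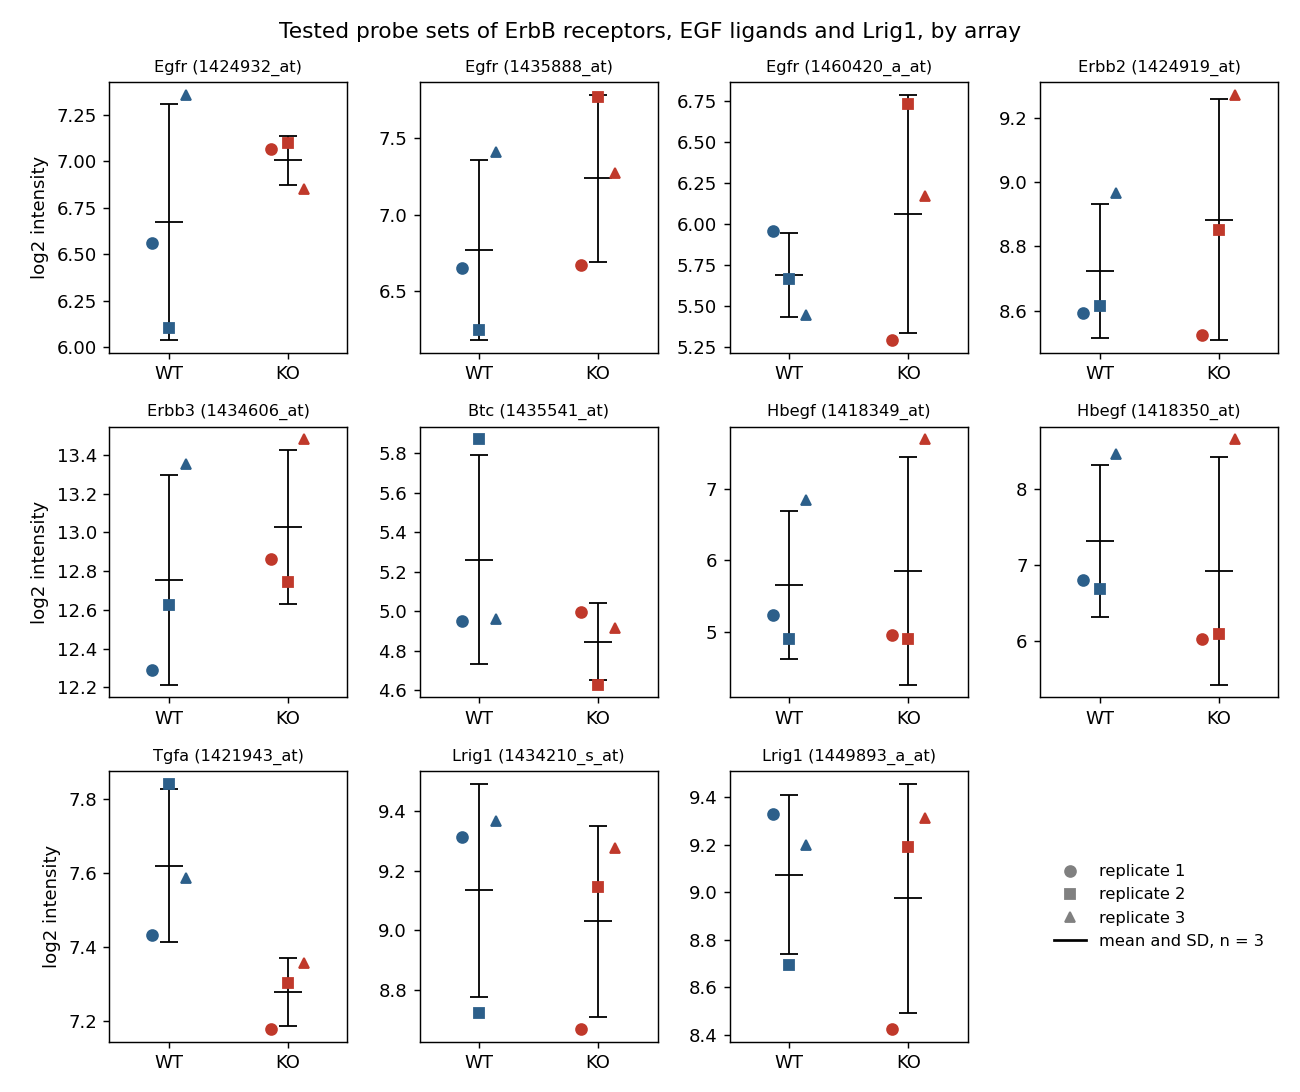
Log2 intensity of the 11 tested probe sets on each array, WT in blue and KO in red, with the replicate number as the marker shape and the mean and SD (n = 3) as bars; each panel has its own vertical scale. Groups overlap in each panel except Tgfa, where KO lies between 7.18 and 7.36 and WT between 7.43 and 7.84, and replicate 3 is the highest of each group for Hbegf, Erbb2 and Erbb3.

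Egfr, the receptor for EGF, TGF-alpha and amphiregulin, had somewhat higher means in KO on its 3 tested probe sets, within the spread between mice. Probe set 1435888_at read 6.67, 7.77 and 7.27 in the KO mice and 6.65, 6.24 and 7.41 in the WT mice. The highest array was KO 2, but WT 3 exceeded the remaining KO arrays, so the groups overlapped. The difference was 0.47 ± 0.39 (SE), with a 95% interval from -0.47 to 1.41 (limma adjusted p = 0.999). Probe set 1424932_at read 7.06, 7.10 and 6.85 in KO against 6.56, 6.10 and 7.36 in WT. On this probe set WT 3 was the highest array of all and the KO arrays lay close together, with a difference of 0.33 ± 0.33 (SE). Probe set 1460420_a_at read 5.29, 6.73 and 6.17 in KO against 5.96, 5.66 and 5.44 in WT. Here WT 3 was the lowest WT array and KO 1 the lowest of all 6, so the 3 probe sets ordered the mice differently. The difference on the last was 0.38 ± 0.38 (SE). With any array left out the Egfr differences ran from 0.20 to 0.79 on 1435888_at, from 0.046 to 0.67 on 1424932_at and from 0.042 to 0.76 on 1460420_a_at. The 4 other Egfr probe sets lay between 1.88 and 2.43 on every array, near the floor of the table, and give no measured level. Which transcript each probe set reads is stated in none of the sources used here.

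Erbb2 encodes the shared partner receptor of the family. It read 8.53, 8.85 and 9.27 in the KO mice and 8.59, 8.61 and 8.96 in the WT mice. The groups overlapped throughout, with KO 1 lowest and KO 3 highest. The difference was 0.16 ± 0.25 (SE; 95% interval -0.43 to 0.75), and it fell to -0.04 without KO 3.

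Erbb3, which couples the family to PI3K, read 12.86, 12.74 and 13.48 in the KO mice and 12.29, 12.63 and 13.35 in the WT mice. KO 3 and WT 3 stood above the remaining arrays, and WT 1 was the lowest. The difference was 0.27 ± 0.34 (SE; 95% interval -0.54 to 1.08), from 0.04 without WT 1 to 0.57 without WT 3. Another Erbb3 probe set stayed between 2.60 and 2.64. WT 3, the WT array without Y-linked signal, was the highest WT array for Erbb2, Erbb3 and the first 2 Egfr probe sets. A fit with Y-linked signal as a term compares the KO mice in effect with WT 3 alone, since WT 1 and WT 2 carry all of that signal. In that fit Egfr went to -0.37 on 1424932_at and -0.20 on 1435888_at, Erbb2 to -0.09 and Erbb3 to -0.31, while Egfr on 1460420_a_at stayed positive at 0.59. WT 3 also had the highest Gapdh 3' minus 5' difference (1.75), a measure of RNA integrity. With that measure as a term instead, Egfr was 0.64 on 1424932_at, 0.67 on 1435888_at and 0.16 on 1460420_a_at. Erbb2 was 0.19 and Erbb3 0.48 in that second fit. The part of sex or RNA integrity in these values was not tested.

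Among the ligands, Tgfa had the only tested member probe set whose groups did not overlap, 1 of 11, a share near the 9.12% of all probe sets tested. Its probe set 1421943_at read 7.18, 7.30 and 7.36 in the KO mice and 7.43, 7.84 and 7.59 in the WT mice. The groups did not overlap, and KO 3 and WT 1 were the nearest pair across the groups. Tgfa encodes TGF-alpha, a ligand of Egfr. The difference of -0.34 ± 0.18 (SE; 95% interval -0.78 to 0.10) missed the test (limma unadjusted p = 0.107, adjusted p = 0.999). The exact two-sided permutation p was 0.1, the smallest that 3 mice against 3 can give and the value of any probe set without overlap. The difference stayed between -0.43 and -0.23 with any array left out. It was -0.29 once Y-linked signal was a term, a value that rests on WT 3 as the only WT array without that signal. The Paneth marker median stood lower on every KO array than on every WT array too, as given above, with 0 of 5 markers past the adjusted threshold and 3 of 5 (Mmp7, Lyz1 and Itln1) lower at an unadjusted p under 0.05 in limma, and their part in the Tgfa values was not tested. The other 2 Tgfa probe sets lay between 2.01 and 2.78.

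The genes whose profile over the 6 arrays was nearest to that of Tgfa, by the root mean square distance between mean-centred log2 values over 16072 probe sets, were Yy1 (0.041), Tmem167 (0.051), Galnt2 (0.051), Lrig2 (0.052) and Zbtb43 (0.056). Lrig2, a relative of Lrig1, read 4.90, 5.08 and 5.15 in KO and 5.29, 5.59 and 5.45 in WT on that probe set (1460025_at). Its brighter probe set (1455217_at) differed by -0.17 ± 0.16 (SE) and the groups overlapped, since WT 3 (5.30) lay below KO 2 (5.31).

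Btc, the betacellulin gene, whose product binds Egfr and Erbb4, read 5.0, 4.63 and 4.91 in the KO mice and 4.95, 5.87 and 4.96 in the WT mice (1435541_at). WT 2 alone stood above the rest, and the remaining 5 arrays lay between 4.63 and 5.0. The difference of -0.41 ± 0.30 (SE; 95% interval -1.12 to 0.29) became -0.11 without WT 2 and -0.57 without WT 1. Another Btc probe set lay between 2.82 and 2.96.

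Hbegf encodes heparin-binding EGF-like growth factor, a ligand that is itself induced within minutes to hours of growth factor or stress signals. It parted mice within each group more than it parted the groups. Probe set 1418350_at read 6.02, 6.09 and 8.66 in the KO mice and 6.81, 6.68 and 8.47 in the WT mice. Probe set 1418349_at read 4.96, 4.91 and 7.69 in KO and 5.24, 4.90 and 6.84 in WT. On both, KO 3 and WT 3 stood at least 1.59 log2 units above the other arrays of their group. The differences between the groups were -0.40 ± 0.83 (SE; 95% interval -2.38 to 1.59) and 0.19 ± 0.87 (SE; -1.88 to 2.27), so the probe sets differed in sign. With both KO 3 and WT 3 left out they were -0.69 and -0.14, where the WT arrays that remain are the ones with Y-linked signal. With that signal as a term they were -1.57 and -1.01, values that rest on WT 3, itself a high array, as the WT side (limma adjusted p = 0.999 for each).

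Many but not all of the measured genes that ERK signalling is known to induce were highest on the same arrays. Egr1, an early-response transcription factor, read 7.24, 10.2 and 12.1 in the KO mice and 9.35, 9.26 and 11.8 in the WT mice. Dusp1, a phosphatase that switches MAP kinases off, read 6.08, 7.69 and 10.4 in KO and 7.42, 7.07 and 9.11 in WT. Fos read 10.6, 12.3 and 13.9 in KO and 12.3, 12.6 and 13.9 in WT. On all 3 genes KO 3 and WT 3 were the high arrays of their group, and the groups overlapped. Counted after these values were seen, KO 3 and WT 3 were each the highest array of their group for 8 of 12 measured genes of the list. Over all genes, with 1 probe set each, the share was 14.1%. Dusp4, Dusp6, Ier3 and Phlda1 did not follow the pattern. Of the 11 tested member probe sets 5 followed it (both of Hbegf and those of Erbb2, Erbb3 and Lrig1 on 1434210_s_at). The genes on which the pattern was seen, Hbegf, Egr1, Fos and Dusp1, are part of these counts, so the counts are no test of it. The list median from the mean of each gene was -0.51, -0.24 and 0.96 in the KO mice and -0.33, -0.25 and 0.40 in the WT mice. The Gapdh 3' minus 5' difference, a measure of RNA integrity that grows as RNA breaks down, was 0.37 on KO 3 and 1.75 on WT 3, the lowest and the highest of the 6 arrays.

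**Figure D2:**
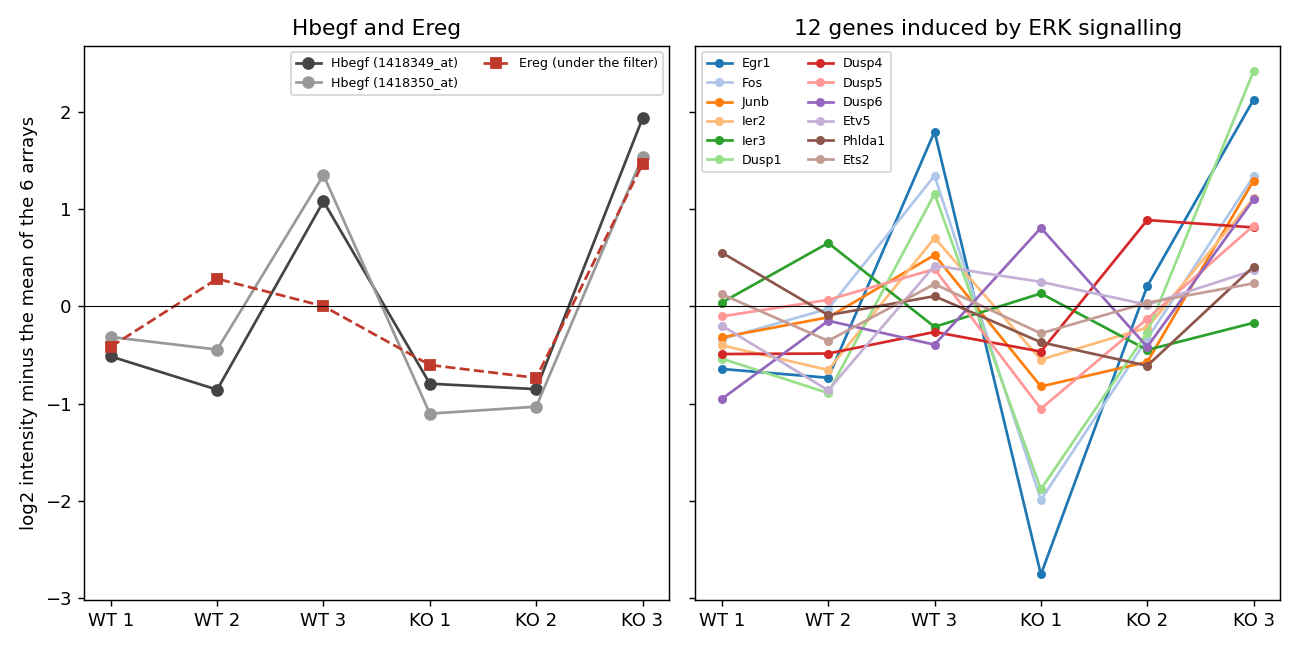
Log2 intensity minus the mean of the 6 arrays, for Hbegf and Ereg (left) and 12 genes known to be induced by ERK signalling (right), on each array. Both Hbegf probe sets peak on WT 3 and KO 3, as Egr1, Fos and Dusp1 do, and KO 1 is the lowest array for those 3 genes; Ereg is high on KO 3 but not on WT 3.

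Ligands under the filter gave values near the floor, where GCRMA compresses differences and can turn a small change into a step. Egf read 2.48, 2.42 and 2.43 in the KO mice and 3.04, 2.47 and 3.94 in the WT mice. WT 3 and WT 1 were above the KO arrays, while WT 2 (2.47) lay just under KO 1 (2.48). In a fit of all 45037 probe sets without the filter the difference was -0.71 ± 0.39 (SE; limma adjusted p = 0.948). Ereg, the epiregulin gene, read 2.97, 2.84 and 5.04 in KO and 3.16, 3.86 and 3.57 in WT. KO 3 was the highest array, and WT 2 and WT 3 stood between it and the rest. The difference was 0.09 ± 0.68 (SE; limma adjusted p = 0.978 without the filter). Of the 11 untested member probe sets, the 9 other than those of Egf and Ereg varied by less than 0.25 over the 6 arrays.

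The relatives outside the 10 genes, Erbb4, Epgn and Nrg1 to Nrg4, had 0 of 6 genes above the filter. Nrg4, a ligand of Erbb4 named here after its values were seen, read 2.77, 2.71 and 2.45 in the KO mice and 4.57, 3.40 and 4.20 in the WT mice (1421681_at). Its groups did not overlap, as was so for 5.14% of the 45037 probe sets. The difference was -1.41 ± 0.33 (SE; limma adjusted p = 0.948 without the filter). Its other probe set (1457123_at) was raised on WT 3 alone (3.72) and read 2.39 to 2.47 elsewhere, so the probe sets did not show the same pattern.

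**Figure D3:**
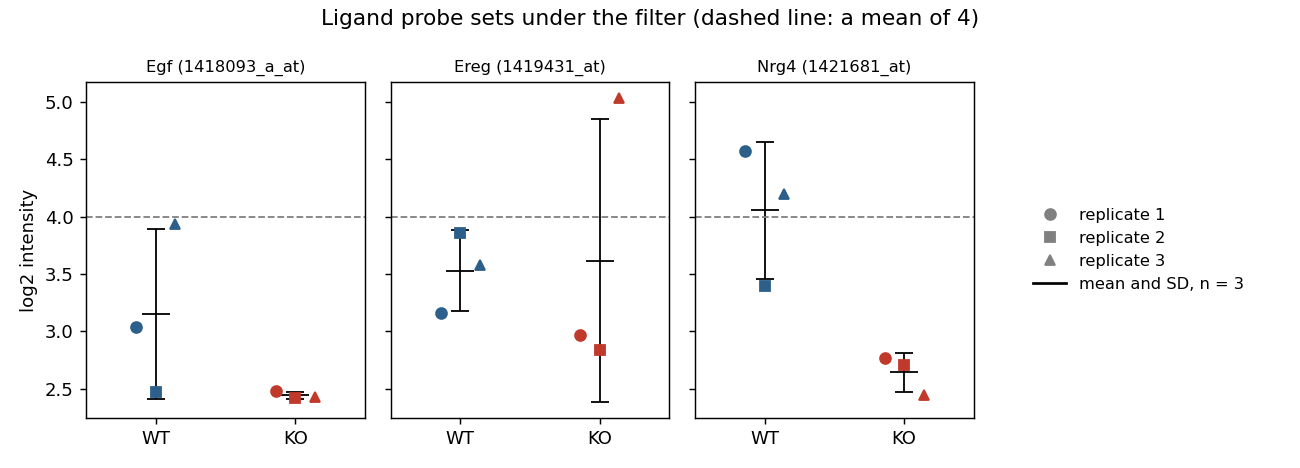
Log2 intensity of Egf, Ereg and Nrg4 (1421681_at) on each array, with the mean and SD (n = 3) and a dashed line at the filter of 4. The KO values of Egf lie between 2.42 and 2.48 and those of Nrg4 between 2.45 and 2.77, while the Ereg mean in KO is carried by KO 3 at 5.04.

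Lrig1 showed no shift that its 2 tested probe sets could resolve. Probe set 1434210_s_at read 8.67, 9.15 and 9.27 in the KO mice and 9.31, 8.72 and 9.37 in the WT mice. Probe set 1449893_a_at read 8.42, 9.19 and 9.31 in KO and 9.33, 8.69 and 9.20 in WT. On both, KO 1 and WT 2 were low and the remaining 4 arrays lay together between 9.15 and 9.37. The differences were -0.10 ± 0.26 (SE; 95% interval -0.74 to 0.53) and -0.10 ± 0.31 (SE; -0.83 to 0.63), and they turned to 0.08 and 0.18 without KO 1. The remaining Lrig1 probe set lay between 2.38 and 2.43.

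**Figure D4:**
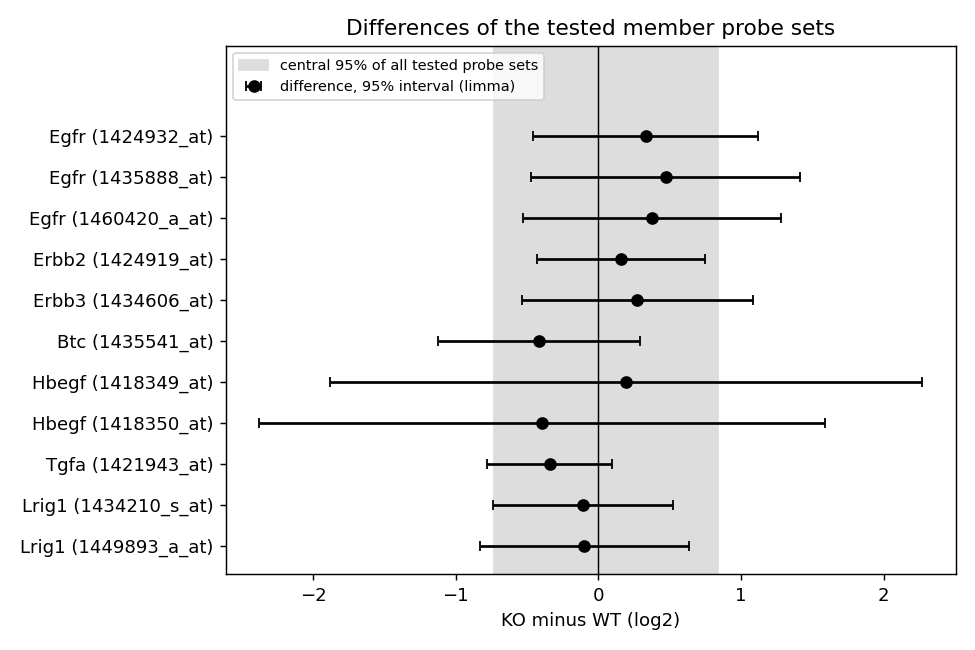
KO minus WT difference (log2) of the 11 tested probe sets with its 95% interval from limma; the grey band holds the central 95% of the differences of all 18108 probe sets, from -0.73 to 0.84. Each interval includes 0, the Tgfa interval is the narrowest and the Hbegf intervals are the widest.

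Sox9 belongs to the HMG-box transcription factors, which bind DNA at sites around the letters ACAAT. The promoter windows of RefSeq (GRCm38.p6; 250 bases before to 50 after a start site) covered 7 of the 10 genes with 8 windows, and 1 of the 8, that of Lrig1, held ACAAT or its reverse complement ATTGT, against 31% of 32851 windows of the same length. The window of Lrig1 is shown because it holds the match and that of Tgfa because its groups did not overlap, each on the strand of its gene with the match in capitals. The match in Lrig1 (chr6:94700096-94700395, minus strand) begins at position -22 from the start site, and the Tgfa window is chr6:86194972-86195271 on the plus strand. A match is a stretch of letters and not a measured binding site.
Lrig1: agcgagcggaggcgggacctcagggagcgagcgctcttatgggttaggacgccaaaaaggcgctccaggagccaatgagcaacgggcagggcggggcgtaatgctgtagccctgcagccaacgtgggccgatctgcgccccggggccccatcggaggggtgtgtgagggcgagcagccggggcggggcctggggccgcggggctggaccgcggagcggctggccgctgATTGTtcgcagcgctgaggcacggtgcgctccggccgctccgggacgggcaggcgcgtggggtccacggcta
Tgfa: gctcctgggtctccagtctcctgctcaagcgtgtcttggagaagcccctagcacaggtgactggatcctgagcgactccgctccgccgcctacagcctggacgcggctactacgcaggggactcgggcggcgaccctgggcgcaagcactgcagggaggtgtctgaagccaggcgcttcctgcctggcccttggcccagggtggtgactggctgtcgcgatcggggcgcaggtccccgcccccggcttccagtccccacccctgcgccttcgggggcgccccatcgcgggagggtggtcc

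In the rest of the pathway no gene passed the test either. Over 6 further lists with 66 genes, 51 were measured with 1 probe set each. In limma 0 passed at the adjusted p, against 0.0103% of all genes, and 0 had an unadjusted p under 0.05, against 3.93%. The groups did not overlap in 4 of the 51, against 9.53% of all genes, and the median difference was -0.01, against 0.04 over all 9679 genes tested. Of the proteases and helpers that free the ligands, 6 of 6 were measured, 3 above and 3 below 0. Adam10, a sheddase of EGF and betacellulin, read 11.09, 11.55 and 11.65 in KO and 11.76, 11.89 and 11.73 in WT, without overlap of the groups (-0.37 ± 0.21, SE; limma adjusted p = 0.999). Rhbdl2, a rhomboid protease gene, differed by -0.60 ± 0.44 (SE), with WT 3 (5.67) among the KO arrays and WT 1 and WT 2 at 7.01 and 7.04.

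Inhibitors of the receptors and of ERK signalling were measured for 14 of 15 genes, 6 above and 8 below 0, with a median of -0.03. The smallest p among them belonged to Socs5 (-0.37 ± 0.33, SE), where KO 1 (3.77) stood under the rest, and to Lrig2. Of the adaptors and kinases of the RAS-ERK branch 12 were measured, 7 above and 5 below 0. Map2k2, which encodes the ERK kinase MEK2, read 11.75, 11.25 and 11.43 in KO and 11.13, 11.08 and 11.19 in WT, without overlap (0.34 ± 0.19, SE; limma adjusted p = 0.999). Araf, a RAF kinase gene, differed by 0.18 ± 0.17 (SE). Of the PI3K-AKT branch 7 of 8 genes were measured, 3 above and 4 below 0. Pdpk1, which encodes an activator of AKT, differed by -0.27 ± 0.35 (SE), with KO 1 at 7.86 and the other arrays between 8.81 and 9.18, and Pik3r2, a regulatory subunit gene, by -0.12 ± 0.20 (SE).

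Among the 12 measured ERK target genes, 5 were above and 7 below 0, with a median of -0.03. Dusp6, the ERK phosphatase that reports pathway activity, had the smallest p of the list. It read 9.85, 8.62 and 10.1 in the KO mice and 8.09, 8.89 and 8.64 in the WT mice. KO 1 and KO 3 stood above all WT arrays and KO 2 among them, a difference of 0.99 ± 0.43 (SE; 95% interval -0.04 to 2.03; limma unadjusted p = 0.0579, adjusted p = 0.999). Dusp4, a related phosphatase, read 5.42, 6.78 and 6.70 in KO and 5.40, 5.40 and 5.63 in WT, with KO 1 level with the WT arrays (0.82 ± 0.38, SE; limma unadjusted p = 0.0683, adjusted p = 0.999). Dusp6 and Dusp4 were high in different KO mice, KO 1 and KO 3 for the first and KO 2 and KO 3 for the second.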

How the data were processed

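Total RNA of jejunal crypts from 6 mice was labelled with biotin and hybridised to single-colour Affymetrix arrays, per the labels' protocols. The deposited values are log2 intensities, for which the submitters' processing notes name GCRMA and limma; settings, versions and the genome build were not stated there. GCRMA pulls dim probe sets toward a floor. Column medians were 2.91 to 2.99, and 0 columns of other samples were present. Array controls (64 of 45101 probe sets) were left out, and 34945 of the 45037 others carried 1 symbol, 932 several and 9160 none. Gene identifiers of 34741 matched RefSeq, with 0 symbols changed.

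Probe sets averaging 4 or more (18108) entered limma 3.58.1 under R 4.3.3 (lmFit, eBayes; KO against WT, two-sided, 4 residual and 2.59 prior degrees of freedom) with Benjamini-Hochberg adjustment over all of them and a threshold of 0.05. The fit was tested on simulated data. Lists used the brightest passing probe set per gene. All member probe sets were named, and from each other list the 2 genes of smallest p; genes named beyond this, such as Egr1, Fos, Dusp1 and Nrg4, were chosen after their values were seen. The members and lists were chosen with earlier results of these data known. The number of arrays limits precision, and p-values describe the spread between these mice. Alternatives were a replicate block, other filters, quantile normalization, median centring, another prior, array weights, gene means and each array left out; terms for Y-linked signal and for Gapdh 3' minus 5', and leaving out both KO 3 and WT 3, were chosen after seeing the data.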

Additional observations from a re-analysis of the deposited data

How the results depend on the processing

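No alternative took a tested probe set of these genes past the threshold: the smallest limma adjusted p over 180 values was 0.724 (Egfr on 1460420_a_at with array weights, difference 0.70), and 160 of the 180 kept their sign. The count of probe sets called over the whole table, 2, was 0 with a replicate block, with no filter and with Y-linked signal or the Gapdh 3' minus 5' value as a term, 1 with a filter at a mean of 6, 4 under quantile normalization, 11 with array weights and 7 with each gene's probe sets averaged; it ran from 0 (without WT 1 or WT 2) to 16 (without WT 3) with each array left out. The litters behind the replicate numbers are not in the labels, so whether the numbers pair the samples is not known. Deviations of same-numbered arrays correlated at -0.05, -0.29 and 0.03 over the probe sets tested. Those of differently numbered arrays correlated at -0.10 to 0.16. Taken from the mean of 3 arrays over all probe sets, such deviations cannot decide whether same-numbered mice shared a litter or day.

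Signs turned in 20 of the 180, and the cause was not tested. Egfr on 1435888_at, the member probe set with the largest difference, turned only with the term for Y-linked signal. With a term for Y-linked signal, where the WT side rests in effect on WT 3 alone, Hbegf on 1418349_at turned to -1.01, Egfr on 1424932_at to -0.37 and on 1435888_at to -0.20, Erbb2 to -0.088 and Erbb3 to -0.31. Hbegf on 1418349_at was -0.14 with both KO 3 and WT 3 left out and -0.10 as the mean of its probe sets. With array weights Lrig1 turned to 0.0019 on 1434210_s_at and 0.080 on 1449893_a_at. With each array left out, Hbegf ran from -0.73 to 0.78 on 1418349_at and from -1.26 to 0.18 on 1418350_at, Erbb2 from -0.036 to 0.34, and Lrig1 from -0.31 to 0.076 on 1434210_s_at and from -0.29 to 0.18 on 1449893_a_at. Btc, Egfr on 1460420_a_at and Hbegf on 1418349_at have no value under the filter at 6. Probe sets near the floor bound no level of their gene.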
